A study of Caenorhabditis elegans with 2 samples.

Results

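The *Caenorhabditis elegans* histone genes were taken as all nuclear protein-coding genes whose symbol is *his-* followed by a number in the RefSeq annotation of the WBcel235 assembly, which ce11 names. There were 72 of them among 19971 nuclear protein-coding genes. By product name or nearest protein they comprised 17 H2A, 17 H2B, 21 H3 and 16 H4 genes and 1 linker (H1) gene, *his-24*. They lay on 6 chromosomes. With neighbours up to 10000 bp apart joined, 67 genes formed 14 clusters and 5 genes stood alone. In 31 places a pair of histone genes faced away from each other (a divergent pair, 62 genes), with 227 to 368 bp between the 5′ ends (median 258 bp). The other 10 genes were unpaired, so the 72 genes had 41 promoters. For 65 genes the annotated 5′ end was the first coding base, so positions upstream of it include any leader that the annotation lacks.

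The binding data came from chromatin immunoprecipitation with sequencing of SNPC-4 tagged with enhanced green fluorescent protein, in whole L3 larvae, males and females pooled. There were 2 biological replicates of 1 group. All animals were strain OP179, which carries the *unc-119(ed3)* allele on chromosome III and the transgene wgIs179; the labels do not name the promoter that drives it. No second condition was measured, so the histone genes are described beside all protein-coding genes, with no test between conditions.

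Core histones H2A, H2B, H3 and H4 form the spool around which DNA is wrapped, and H1 binds the linker between spools. In animals most core histone genes occur as repeated copies in clusters and are transcribed mainly while DNA is replicated, and their messages end in a stem-loop in place of a poly(A) tail. H3.3 variants are also made outside replication. SNPC-4 belongs to the SNAPc complex, which recognises the upstream element of small nuclear RNA genes.

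A histone gene was counted as bound where the summit of a region lay within 500 bp of its 5′ end. In the thresholded list of 2672 peaks, 12 of 72 histone genes had such a peak (16.7%), against 8.94% of all protein-coding genes. These 12 genes shared 7 peaks, since 5 peaks lay between the starts of a divergent pair. Among the 2672 strongest regions of a single replicate list, 7 histone genes were bound in replicate 1 and 11 in replicate 2. The share over all protein-coding genes was not computed for the single replicates, so these 2 counts have no matching background. The 12 bound genes of the thresholded list were *his-37*, the pairs *his-67*/*his-68*, *his-61*/*his-62*, *his-4*/*his-3*, *his-35*/*his-41* and *his-60*/*his-59*, and *his-24*. In the pooled list of 30000 regions, which holds background as well, 16 of 72 histone genes had a region (22.2%), against 34.8% of all protein-coding genes. So the histone share was above the background in the short list and below it in the long list.

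The DNA around 6 of the 7 peaks is shown because the sequences, their copies elsewhere and a word they share are what the results below describe. Each stretch is from the RefSeq WBcel235 genome, plus strand, 5′ to 3′, and runs up to 110 bp on each side of the summit or to the next protein-coding gene, so that base 111 is the summit in each bound stretch. Capitals mark the word GGGGACACAT or its reverse complement ATGTGTCCCC. The stretches are chrV:9546900-9547104 for *his-37*, chrIV:7486299-7486519 for *his-61*/*his-62*, chrX:14489926-14490093 for *his-24*, chrV:16040519-16040739 for *his-4*/*his-3*, chrV:9545372-9545535 for *his-35*/*his-41* and chrIV:7488040-7488248 for *his-60*/*his-59*. All 6 lie upstream of annotated 5′ ends, outside exons and introns of protein-coding genes. The *his-24* and *his-4*/*his-3* stretches overlap the annotated noncoding RNA genes M163.19 and T10C6.19.
his-37: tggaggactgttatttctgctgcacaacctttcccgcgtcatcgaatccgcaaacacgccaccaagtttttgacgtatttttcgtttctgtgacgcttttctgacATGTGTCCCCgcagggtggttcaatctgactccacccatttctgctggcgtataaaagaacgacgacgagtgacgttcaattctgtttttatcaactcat
his-61/his-62: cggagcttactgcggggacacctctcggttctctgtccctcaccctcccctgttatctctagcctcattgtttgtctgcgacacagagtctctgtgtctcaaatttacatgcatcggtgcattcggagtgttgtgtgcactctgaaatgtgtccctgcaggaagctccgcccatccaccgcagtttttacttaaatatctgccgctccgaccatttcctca
his-24: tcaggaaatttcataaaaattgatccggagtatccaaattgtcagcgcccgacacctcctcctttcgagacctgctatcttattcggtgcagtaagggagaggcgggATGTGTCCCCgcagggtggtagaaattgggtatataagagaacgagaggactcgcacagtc
his-4/his-3: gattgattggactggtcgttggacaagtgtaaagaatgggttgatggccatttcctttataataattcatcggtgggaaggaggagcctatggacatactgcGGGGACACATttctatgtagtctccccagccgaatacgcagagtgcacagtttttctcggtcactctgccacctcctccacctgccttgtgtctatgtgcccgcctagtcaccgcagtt
his-35/his-41: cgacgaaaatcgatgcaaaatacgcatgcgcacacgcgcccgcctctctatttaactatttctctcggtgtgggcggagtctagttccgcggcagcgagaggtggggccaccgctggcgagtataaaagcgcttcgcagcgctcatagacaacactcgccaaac
his-60/his-59: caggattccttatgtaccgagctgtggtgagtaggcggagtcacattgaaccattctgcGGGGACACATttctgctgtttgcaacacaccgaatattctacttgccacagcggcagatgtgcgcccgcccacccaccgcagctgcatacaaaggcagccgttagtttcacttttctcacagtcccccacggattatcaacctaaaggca
A pair of stretches without any region is shown for contrast, each the whole interval between the 5′ ends. The H3 and H4 genes *his-2* and *his-1* (chrV:16042284-16042519) are the neighbours of *his-4*/*his-3*. The genes *his-14* and *his-13* (chrII:13819938-13820209) lie in the cluster on chromosome II.
his-2/his-1: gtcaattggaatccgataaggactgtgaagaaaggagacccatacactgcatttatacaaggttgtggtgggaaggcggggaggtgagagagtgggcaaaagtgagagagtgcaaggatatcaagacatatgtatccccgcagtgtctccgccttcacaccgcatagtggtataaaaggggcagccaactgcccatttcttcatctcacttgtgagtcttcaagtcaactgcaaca
his-14/his-13: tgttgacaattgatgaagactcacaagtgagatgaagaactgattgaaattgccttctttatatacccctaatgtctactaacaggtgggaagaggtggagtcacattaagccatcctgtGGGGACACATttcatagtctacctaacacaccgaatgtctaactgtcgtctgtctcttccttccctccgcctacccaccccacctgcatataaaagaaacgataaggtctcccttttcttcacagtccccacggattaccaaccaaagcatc

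The strongest peak at a histone gene was at the H4 gene *his-37*. Its deposited signal, in an arbitrary unit of each list that is not compared across lists, was 199.5 in the pooled list (rank 111), 115.5 in replicate 1 (rank 112) and 87.1 in replicate 2 (rank 133). The summit lay 95 bp upstream of the start. The gene therefore ranked near the top of each list, and its replicate summits were 2 bp apart.

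The peak between the H4 gene *his-67* and the H2A gene *his-68* had a signal of 104.9 in the pooled list (rank 296), 58.0 in replicate 1 (rank 305) and 46.4 in replicate 2 (rank 353). The peak between the H2A gene *his-61* and the H2B gene *his-62* had 82.0 in the pooled list (rank 481), 32.3 in replicate 1 (rank 944) and 48.9 in replicate 2 (rank 318). With *his-37* these were the 3 histone peaks among the 500 strongest of the list.

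The other 4 peaks lay in the weaker 50% of the thresholded list. At the pair of the H2B gene *his-4* and the H2A gene *his-3* the signal was 37.2 in the pooled list (rank 1925), 23.2 in replicate 1 (rank 1688) and 13.4 in replicate 2 (rank 3031). At the H2A gene *his-35* and the H2B gene *his-41* it was 35.8 in the pooled list (rank 2028), 15.7 in replicate 1 (rank 3086) and 18.7 in replicate 2 (rank 1949). Neither pair stood within the 2672 strongest regions of both replicate lists.

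The peak between the H4 gene *his-60* and the H3 gene *his-59* was the weakest, with 30.8 in the pooled list (rank 2504), 15.01 in replicate 1 (rank 3306) and 17.0 in replicate 2 (rank 2221). The lowest signal in the thresholded list was 29.1. Its summits moved by 44 bp between the replicates, the widest of the 6 peaks found in both, whose median shift was 17 bp.

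The linker histone gene *his-24* differed between the replicates. It had 39.1 in the pooled list (rank 1788) and 35.6 in replicate 2 (rank 634), and no region within 500 bp in replicate 1, where the nearest summit was 1371 bp away. Its summit lay 58 bp upstream of the start and 112 bp from the 5′ end of the noncoding RNA gene M163.19. The *his-4*/*his-3* summit lay 183 bp from the 5′ end of another noncoding RNA gene, T10C6.19, so at these 2 promoters the nearest histone start was closer than the noncoding one, and both lay in the window.

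**Figure D1:**
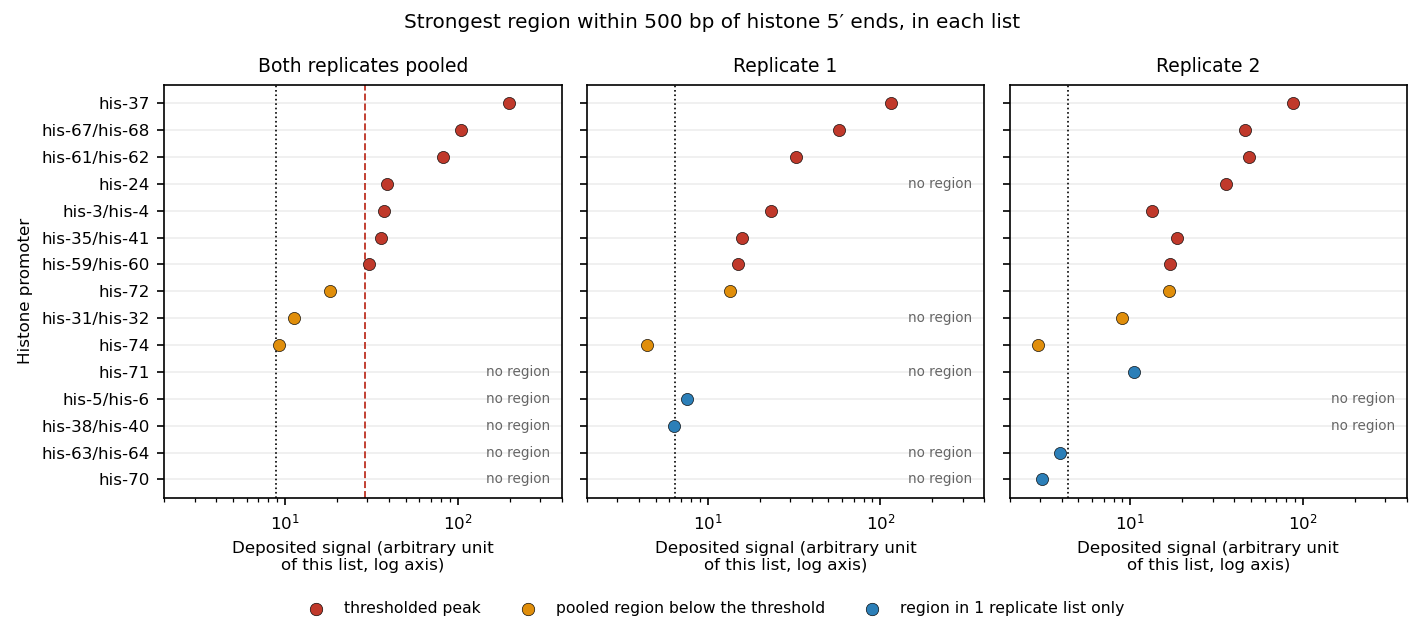
Deposited signal of the strongest region within 500 bp of the 5′ ends of the 15 histone promoters with a region in any list (log axis, arbitrary unit of each list), for the pooled list and each replicate; points are regions, dotted lines the median of the list and the dashed red line the lowest thresholded signal (29.1). The 7 thresholded promoters lie at 30.8 to 199.5 in the pooled list, and *his-24* has no point in replicate 1.

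Below the threshold, 4 histone genes had a pooled region. The nearest to it was *his-72*, an H3.3 gene that stands alone on chromosome III, with 18.3 in the pooled list (rank 4790). In replicate 2 its region had 16.7 (rank 2267) with the summit 92 bp upstream, while the strongest region in replicate 1 had 13.5 (rank 3952) with the summit 286 bp inside the gene and 220 bp from the 5′ end of the snoRNA gene Y49E10.36. The replicates therefore placed their summits at different points of *his-72*.

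The H4 and H3 pair *his-31*/*his-32* had a pooled signal of 11.2 (rank 10120), 8.99 in replicate 2 (rank 5176) and no region in replicate 1. The H3.3 gene *his-74*, alone on chromosome V, had 9.19 in the pooled list (rank 14097), 4.46 in replicate 1 (rank 25875) and 2.92 in replicate 2 (rank 24465). The pooled median over all regions was 8.84, so *his-74* lay close to the middle of a list that holds background.

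A further 8 genes had a region in 1 replicate list and none in the pooled list. In replicate 1 these were *his-6*/*his-5* (rank 11267) and *his-38*/*his-40* (rank 15269). In replicate 2 they were the H3.3 gene *his-71* (rank 4164, signal 10.5), *his-63*/*his-64* (rank 17160) and the H3.3 gene *his-70* (rank 23202). The remaining 48 genes had no region in any list, among them *his-73*, an H3-like gene alone on chromosome II whose protein has 46 residues.

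Counted by type, a thresholded peak was found at the only linker gene, 4 of 17 H2A genes, 3 of 17 H2B genes, 1 of 21 H3 genes and 3 of 16 H4 genes. The H3 gene was *his-59*. Over all protein-coding genes the share with a peak was 8.94%. Counted by pair, 3 of 16 H2A/H2B pairs, 1 of 14 H3/H4 pairs and the only H2A/H4 pair had a peak. None of the single H3.3 genes *his-71*, *his-72* and *his-74* had one. Pair members share a summit, so the types are not independent counts. The types also differed in the share of sequence around the start that occurs once in the genome, treated below. Its median was 0% for H2A and for H2B genes, 29.5% for H4 genes and 69.3% for H3 genes. Among the core types, H3 had the fewest genes with a peak and the highest median. Among genes with at least 50% unique sequence, every H2A gene had a peak (*his-3*, *his-35*, *his-61* and *his-68*), and every H2B gene except *his-39*. Of the H4 genes at that level, *his-37*, *his-60* and *his-67* had a peak, and *his-1*, *his-31*, *his-38* and *his-64* had none. Of the H3 genes at that level, only *his-59* had one. With a region counted for the nearest start alone, 7 genes were bound, 1 of them an H2A and 1 an H4 gene. Among the 2672 strongest regions of replicate 1 alone, no linker and no H3 gene was bound.

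Summits sat upstream of the coding genes. At the 12 bound genes the median position was 132 bp upstream of the 5′ end, with a range of 54 to 241 bp upstream. Within pairs the summit was seldom central. It lay 54 bp from *his-41* and 194 bp from *his-35*, 99 bp from *his-59* and 158 bp from *his-60*, 114 bp from *his-4* and 179 bp from *his-3*, 136 bp from *his-62* and 192 bp from *his-61*, and 128 bp from *his-68* and 241 bp from *his-67*.

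The 12 bound genes, which share 7 peaks, lay in 5 places. Most histone genes stand in pairs or clusters, and grouping beyond that arrangement was not tested. All genes had a peak in 3 clusters: *his-67* and *his-68* on chromosome I, the 4 genes from *his-61* to *his-59* on chromosome IV (2826 bp) and the 3 genes from *his-35* to *his-37* on chromosome V (2949 bp). In the 4-gene cluster *his-4* to *his-1* on chromosome V, the H2A/H2B pair *his-4*/*his-3* had a peak and the H3/H4 pair *his-2*/*his-1* had no region in any list. The single gene *his-24* on chromosome X was the remaining place. No histone gene on chromosome II (14 genes) or III (3 genes) had a thresholded peak.

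The largest cluster, 13 genes from *his-16* to *his-42* on chromosome II, had no region within 500 bp of any start in any list. Of the 36-base words in its 10938-bp span, 7.34% occurred once in the genome, against 92.1% over all nuclear chromosomes. The pooled list had 2 summits inside the span, both away from the starts. A thresholded peak with a signal of 117 (rank 244) stood 855 bp upstream of the start of *his-42*, outside the window. It was at the small nuclear RNA gene F08G2.10, with its summit 61 bp upstream of that gene.

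On chromosome V, 14 histone genes in the clusters *his-50* to *his-53* and *his-28* to *his-18* lay in a stretch of 97754 bp (chrV:8802498-8900252) with no pooled summit. Neighbouring pooled summits were 1540 bp apart in the median, and 27841 bp at the 99th percentile. In that stretch 11.5% of 36-base words were unique.

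**Figure D2:**
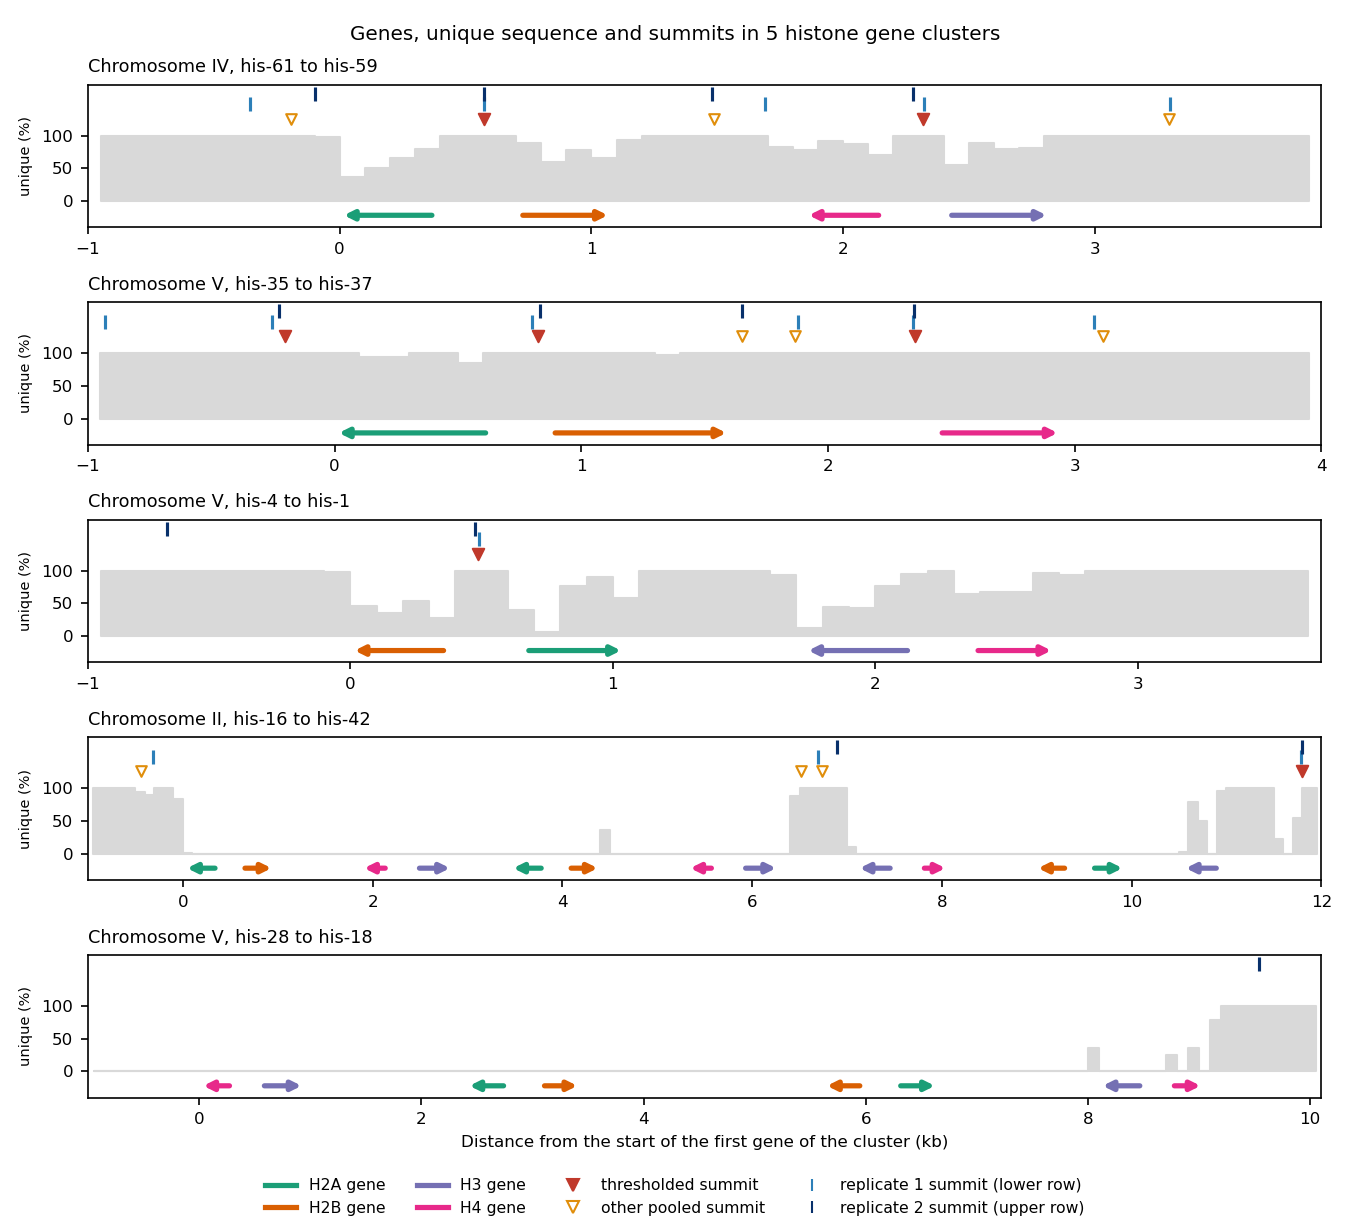
Maps of 5 histone clusters, with distance from the first gene in kb, the percentage of 36-base words found once in the genome per 100 bp (grey), genes as arrows coloured by type, pooled summits as triangles (filled red where thresholded) and replicate summits as ticks. The clusters *his-61* to *his-59* and *his-35* to *his-37* have thresholded summits between their starts, whereas the grey level is near 0 along most of *his-16* to *his-42* and *his-28* to *his-18*, where no summit lies within 500 bp of a start.

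Histone genes are near-identical copies, so the share of sequence that occurs once in the genome was set beside each count. A read that lies wholly in a repeated stretch cannot be placed at 1 copy, and the deposited lists do not say how such reads were handled. The share of unique 36-base words within 250 bp of the 5′ end had a median of 7.19% over the 72 histone genes, against 100% over all protein-coding genes. It was below 50% for 43 histone genes, and 33 of the 48 genes with no region in any list were at 0. The 12 bound genes ran from 64.7% to 100% with a median of 89.8%.

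Among the 29 histone genes with at least 50% unique words, 12 had a thresholded peak (41.4%), against 9.2% of the 19369 protein-coding genes above the same level. In the pooled list 16 of the 29 had a region (55.2%), against 35.7%. Among the 43 histone genes below 50%, none had a thresholded peak and none a pooled region, against 0.498% and 3.32% of the 602 protein-coding genes below that level. The low pooled share over all 72 genes thus went with the 43 genes in repeated sequence; the part of mapping in it was not tested.

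Divergent starts also bear on these counts, since 1 peak can serve a pair of genes. Among the 19 paired histone genes with at least 50% unique words, 10 had a peak (52.6%), against 27% of the 3345 protein-coding genes at that level with a divergent protein-coding neighbour within 1000 bp. Among the 10 unpaired histone genes, all at or above 50%, 2 had a peak. Counted by promoter, 7 of 19 with at least 50% unique words had a peak (36.8%), and 0 of the 22 others. No share over all protein-coding genes was computed for unpaired genes or by promoter. The unpaired and promoter counts therefore have no matching background, and the 27% is not one. The 27% is also not matched for the gap between starts. Histone pairs had 227 to 368 bp between them, so a summit in that interval is within 500 bp of both genes. With a gap of up to 1000 bp it can be within 500 bp of 1 gene only. The part of the gap in the difference was not tested.

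Above that level, 6 histone genes still had no region in any list: *his-73*, *his-42*, *his-69*, *his-39*, *his-2* and *his-1*. The H3.3 gene *his-69* was at 100%, *his-1* at 79.6% and *his-2* at 77.8%. The last 3 values were above those of the bound genes *his-4* (67.9%) and *his-3* (64.7%).

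**Figure D3:**
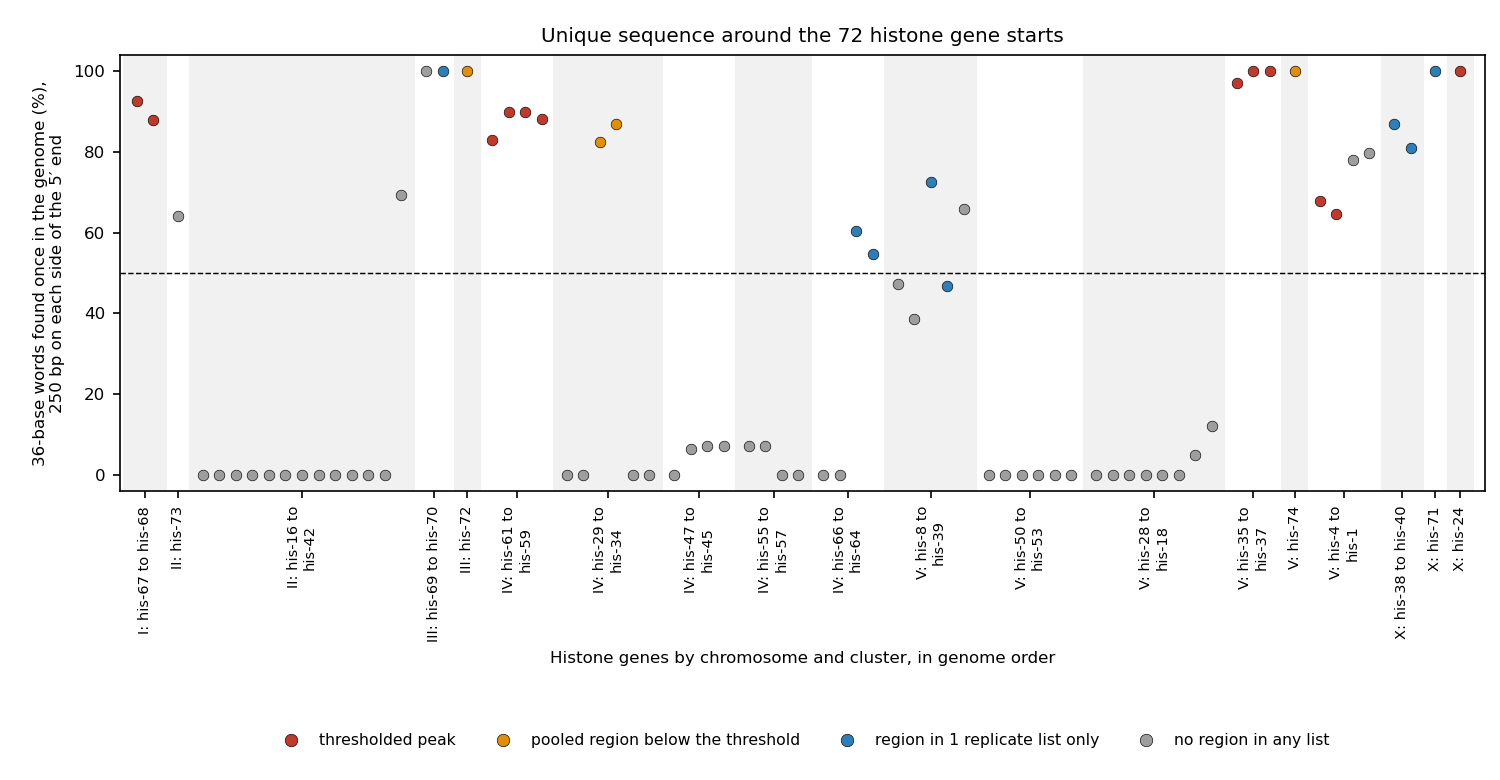
Percentage of 36-base words found once in the genome within 250 bp of the 5′ end of each of the 72 histone genes, in genome order by cluster, coloured by the list that holds a region within 500 bp; the dashed line marks 50%. All thresholded and pooled genes lie above the line, and long runs of points at 0 on chromosomes II, IV and V have no region.

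**Figure D4:**
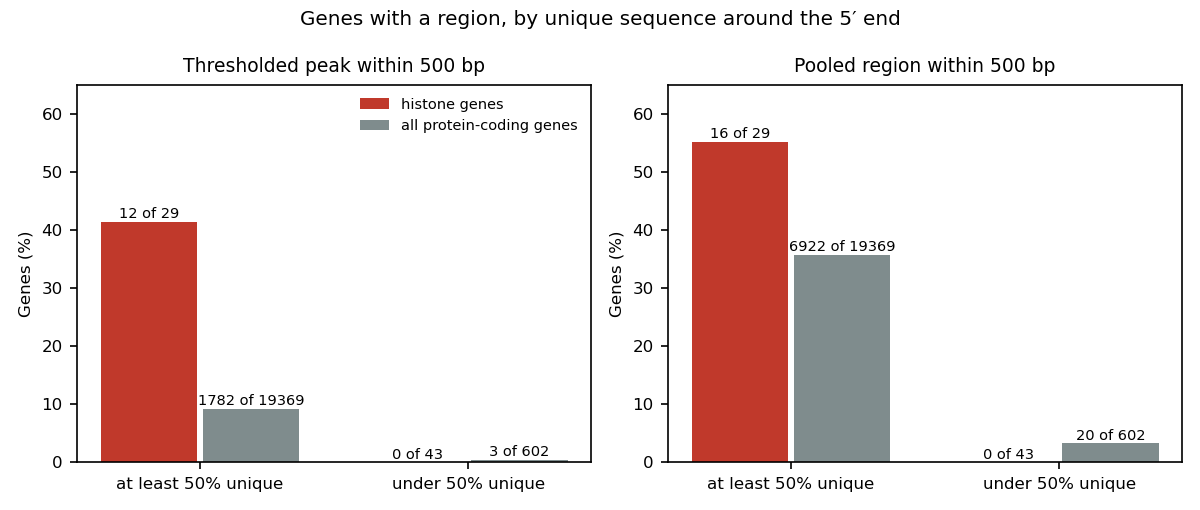
Percentage of genes with a thresholded peak (left) or a pooled region (right) within 500 bp, for histone genes (red) and all protein-coding genes (grey), split at 50% unique words; the counts stand above the bars. Above 50% the histone bars are at 41.4% and 55.2%, and below it both are 0 of 43.

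The intervals between paired starts showed how close the copies are. Of 30 pairs that could be compared with another pair of the same types, 16 had an exact copy of the whole interval elsewhere, and none of these 16 had a thresholded peak or a pooled region. The *his-14*/*his-13* stretch printed above is 1 of them, identical to those of *his-10*/*his-9* and *his-25*/*his-26*. Of the other 14 pairs, 4 had a peak. Their identity to the closest pair was 58.3% for *his-35*/*his-41*, 80.4% for *his-61*/*his-62*, 86.8% for *his-60*/*his-59* and 88.7% for *his-4*/*his-3*. Of the 10 without a peak, *his-31*/*his-32* was at 63.2%, inside the range of the bound pairs, while *his-38*/*his-40* was at 89.4% and *his-2*/*his-1* at 90.3%, just above it, and the other 7 were at 92.8% to 99.6%.

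Words of 8 letters in excess at the other peaks were looked up in the histone promoters (250 bp before to 50 bp after the start). Of the 8 with the largest excess, 5 were in histone promoters at *his-67*/*his-68* alone (2.78%), against 2.45% to 3.53% of all protein-coding promoters, so their histone share was near the background. AGAGAAAA was at *his-24* alone (1.39%), against 10.1% of all protein-coding promoters, and AGAGAGAG was at none, against 2.87%. GAGAGAAA was in 9 of 72 histone promoters (12.5%), against 5.91% of all protein-coding promoters. The word AGACGCAG, on either strand, was within 100 bp of 15.5% of the 2639 other nuclear summits and in 1.10% of windows 600 bp away. It was within 100 bp of 1 of the 7 histone summits, a count too small to set apart from the 15.5%. The 22-bp upstream element fitted to 50 spliced leader and small nuclear RNA genes with a peak was at 45 of those 50 sources, which are not independent of it. At a score that 1% of protein-coding promoters reached, it was in 0 of 72 histone promoters, 0 of the 7 histone peaks and 9.97% of the other nuclear peaks. The other nuclear peaks include those of the sources, so the 9.97% is not independent of the fit either. In sets as small as 72 promoters and 7 peaks, a count of 0 is not far from these shares. The nearest histone score was at *his-61*/*his-62*, at percentile 97.8 of protein-coding promoters.

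Other words were frequent in the histone promoters. GGAGGAAA, the most frequent over the background, was in 65.3% of histone promoters, against 2.51% of all protein-coding promoters, and within 100 bp of 0 of the 7 histone summits. GGGGACAC, on either strand, was in 44 of 72 histone promoters (61.1%), against 0.521% of all protein-coding promoters, and within 100 bp of 6 of the 7 histone summits. At the other nuclear summits it was in 0.720%, against 0.114% of windows 600 bp away. Overlapping words frequent in the histone promoters, of which GGGGACAC is one, joined into the 10-letter word GGGGACACAT (reverse complement ATGTGTCCCC). It was in 34 of 72 histone promoters (47.2%), in 40 of 19971 protein-coding promoters in all (0.200%), and within 100 bp of 3 of the 2639 other nuclear summits. The 72 histone promoters are not separate occurrences, since pair members share an interval and 16 pairs have an exact copy of theirs elsewhere. With pairs counted once, 18 of 41 promoters held the 10-letter word. The word was chosen from the histone promoters, so its share there is a description.

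The word lay within 100 bp of the summit at 5 of the 7 bound promoters. Its centre was 0.5 bp from the pooled summit at *his-37*, 1.5 bp at *his-24*, 3.5 bp at *his-4*/*his-3*, 8.5 bp at *his-67*/*his-68* and 46.5 bp at *his-60*/*his-59*. At *his-60*/*his-59* the distance was 52.5 bp in replicate 1 and 8.5 bp in replicate 2, so the replicates disagreed most there. Over the 18 promoters that hold it, the word was 56.5 to 136.5 bp from the nearer 5′ end, with a median of 102 bp. The stretch at *his-61*/*his-62* printed above has GGGGACAC but not the longer word, and has 2 matches with 1 letter different, centred 40.5 bp and 92.5 bp from the summit. At *his-35*/*his-41* the best match had 3 letters different and was centred 2.5 bp from the summit. Of all protein-coding promoters, 58.4% had a best match with 3 letters different.

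Among the 19 promoters with at least 50% unique words, all 5 that hold GGGGACACAT had a thresholded peak, and 2 of the other 14 did. A pair was placed by the lower of its genes. Counted by gene, 8 of 9 with the word at that level had a peak, and 4 of 20 without it. With 1 letter different, *his-61*/*his-62* had a peak, *his-31*/*his-32* had a pooled region below the threshold, and *his-2*/*his-1* had none. With 2 or more letters different, 1 of 11 had a peak, at *his-35*/*his-41*. Among promoters below 50%, 13 held the word and none had a peak. Of these *his-6*/*his-5*, whose genes are at 72.5% and 46.9%, had a replicate 1 region with its summit 3.5 bp from the word. With words of 50 bases *his-6* was at 87.6% and *his-5* at 57.5%. That setting would put this pair, which has no peak, above the level, so the 5 of 5 depends on the word length. Promoters with the word and repeated sequence thus had no pooled region, and the part of mapping in this was not tested.

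**Figure D5:**
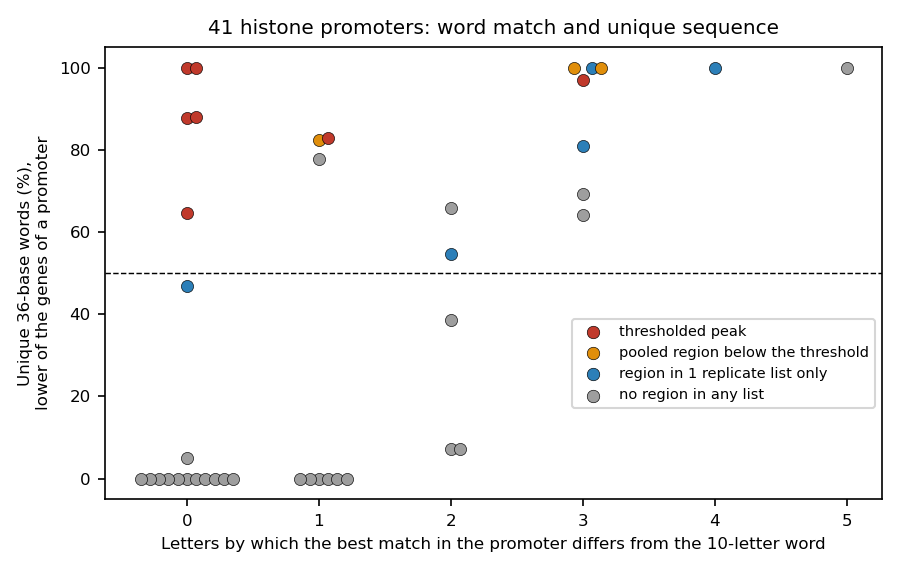
Unique 36-base words (%, the lower of the genes of a promoter) against the number of letters by which the best match in each of the 41 histone promoters differs from the 10-letter word, coloured by the list that holds a region; points are shifted sideways where they overlap. Above the dashed line at 50%, the 5 promoters with an exact match all have a thresholded peak. Below it, the promoters with an exact match have none, among them *his-6*/*his-5* at 46.9%, close to the line.

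Outside the *his-* symbols, the list of histone variant and linker genes held 11 genes. A thresholded peak was found at 2 of them and a pooled region at 6, beside the 8.94% and 34.8% of all protein-coding genes given above. The H2A.Z gene *htz-1* had a pooled signal of 103 (rank 312, rank 279 in replicate 1 and 501 in replicate 2) with the summit 276 bp upstream. The centromeric H3 gene *hcp-3* had 30.1 (rank 2576), with rank 1781 in replicate 1 and 7785 in replicate 2. The other H1 genes, *hil-1* to *hil-8*, had no thresholded peak.

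Histone chaperones and the histone message binding protein formed a second list, of which 16 genes were found in the annotation. A thresholded peak was found at 7 of these 16 (43.8%), against 8.94% of all protein-coding genes, and a pooled region at 8 of 16, against 34.8%. They were *lin-53*, a subunit of several chromatin complexes (signal 118, rank 236), the nucleosome assembly gene *nap-1* (86.1, rank 440), the stem-loop binding protein gene *cdl-1* (79.0, rank 517), the chromatin assembly factor gene *chaf-2* (54.2, rank 1058), the Asf1 gene *unc-85* (39.1, rank 1793), *hira-1*, whose product deposits H3.3 (38.6, rank 1841), and *hmg-4*, a subunit of the FACT complex (35.2, rank 2074). The share is a description of a short list that was drawn up with earlier results of these data known.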

How the data were processed

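Per the file headers, the authors made a thresholded list from both replicates by the irreproducible discovery rate method, a list for the pooled replicates and a list for each replicate, on ce11 and ce10; the ce11 lists were used. Each region has a signal value that the authors deposited in an arbitrary unit, used here for values and ranks within a list only. Each also has a −log10 q-value, also deposited by the authors and left aside here. By position, the thresholded list equals the top 2672 of the pooled list. The sources used here do not give the aligner, peak caller, read length or handling of repeated reads. Without read counts the depth stays unknown, and there is no interval. The control alignment was not analysed here.

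A region belonged to every gene with a 5′ end within 500 bp of its summit. Types came from RefSeq product names or, failing that, the closest histone protein (H1 below 50% identity); unique words have 36 bases, both strands counted. Word excess was taken in 200 bp at the summit against 200 bp centred 600 bp away on both sides. Named are all bound histone genes, those with a pooled region among the 10000 strongest, the nearest to the threshold, pair partners, genes outside clusters and bound members of the further lists; other histone genes were named after their values were seen. Genes *ssrp-1* and *spt-2* were not found in the annotation. The window counts and unique-word shares were tested on simulated sequence. Members and lists were chosen with earlier results of these data known, and the upstream element, the histone promoter words and the divergent and unique-word backgrounds were added after the data were seen. Alternatives changed the window, the assignment, the replicates, the threshold, the cluster distance and the unique-word settings. Python 3.11.15, numpy 2.4.6, pandas 2.3.3, Biopython 1.88 and matplotlib 3.10.9 were used.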

Additional observations from a re-analysis of the deposited data

How the results depend on the processing

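Of the values recomputed under alternatives, 51 of 75 stayed within 1.5 times the main count or, for ranks and positions, within the spread between replicates. A window of 250 bp, and a rule that counted any region overlapping the 500-bp window, kept the same 12 genes. Neither could remove a gene, since the farthest summit was 241 bp upstream and the overlap rule is looser than the summit rule. A window of 1000 bp gave 14 genes with a thresholded peak, adding *his-42* and *his-74*, which brought H3 to 3 genes; in the pooled list it gave 30 genes, a median rank of 4779 and a median position of -106.5 bp. Counting a region for the nearest start alone gave 7 genes (H2A 1, H4 1), 10 genes with a pooled region and a median position of -106.5 bp. The stronger 50% of the thresholded list held 5 genes at 3 peaks in 3 places, with H1 at 0, H2A at 2, H2B at 1 and H3 at 0. With the 2672 strongest regions of 1 replicate list, the count was 7 to 11 genes and 4 to 7 peaks, H1 was 0 to 1 and H3 was 0 to 2. Without replicate 2 the genes *his-24*, *his-35*, *his-41*, *his-59* and *his-60* were lost; without replicate 1 *his-3* and *his-4* were lost and *his-72* was gained. In the whole replicate lists the median rank was 2244 to 3086 and the median position -139 to -137 bp. With words of 50 bases 31 genes, and with 500 bp on each side 28 genes, had at least 50% unique sequence, in place of 29; under either setting none of the genes below 50% had a pooled region. For the changes between the replicate lists the cause was not tested. The depth of the libraries is unknown, so a gene without a region cannot be told from a gene whose signal was below the limit of the list; the part of repeated sequence at the 43 genes under 50% unique words was not tested.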

Other observations

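The 10-letter word of the histone promoters was also in 6 protein-coding promoters outside the *his-* genes, 3 of which had a thresholded peak. These were *memb-1* (signal 38.1, rank 1869, word 57.5 bp from the summit), *fbxa-153* (35.5, rank 2050, word 87.5 bp from the summit) and K07C5.13 (35.5, rank 2056, no copy within 100 bp of the summit). The nearest histone start was 430131 bp away or farther for each of these 3. The shorter word GGGGACAC was in 60 protein-coding promoters outside the *his-* genes, of which 5 had a thresholded peak (8.33%), close to the 8.94% of all protein-coding genes.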
